A study of Mus musculus with 12 samples.

Results

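SR proteins and heterogeneous nuclear ribonucleoproteins (hnRNPs) are the RNA-binding proteins that decide, with the spliceosome, which exons of a transcript are kept. This report describes the binding of MOF at their genes in mouse visceral white adipose tissue. The genes were chosen by name from the autosomal protein-coding genes of GENCODE mouse release M21: every symbol made of Srsf and a number, every symbol starting with Hnrnp, and Tra2a, Tra2b, Ptbp1, Ptbp2 and Ptbp3. This gave 35 of the 20807 autosomal protein-coding genes, of which 11 encode SR proteins, 2 encode TRA2 proteins and 22 encode hnRNP or PTB proteins. A single coding gene with a matching name, Hnrnph2, lies on the X chromosome and was left out, as were 2 genes with matching names that are not protein-coding.

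MOF, also named KAT8, is an acetyltransferase of histone H4, and its binding was measured by chromatin immunoprecipitation and sequencing (ChIP-seq). The labels describe C57BL/6 mice, 8 weeks old and on standard diet, either wild type (Mof+/+) or with 1 functional copy of the gene (Mof+/-), and 12 libraries, of which each genotype has 2 for MOF, 2 for histone H3 and 2 of input DNA. The deposited data used here were 1 list of MOF peaks per genotype, with 19773 peaks for Mof+/+ and 731 for Mof+/-. Neither list names a library, so no value below has a replicate or an error between animals, and all counts and differences are descriptions without a test. The tissue was minced whole, so each list is a mixture of its cell types: a Mof+/+ promoter peak was listed for 5 of 10 adipocyte markers (Fabp4 and Pparg were without one), 5 of 6 B cell markers, 6 of 6 T cell markers and 1 of 6 each for macrophages, endothelial and mesothelial cells (42.7% of all autosomal coding genes had one), and the part of each cell type in the peaks described here was not tested. By ChIP-qPCR in visceral adipose tissue, the study reports MOF at the promoter of the main Pparg isoform. Absence from the list is therefore not absence of binding.

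The input background differed between the lists, and the sequencing depth of the libraries was not measured here. MACS2, the peak caller, derives its fold enrichment and p-value from the fragments over the summit, the highest point of a peak, and from the local input background, and both could be solved for. At its lowest, the background stood at 3.52 fragments for Mof+/+ and at 2.26 for Mof+/-, which is 0.642 times as many. Peaks at the SR and hnRNP genes rested on few fragments: the strongest Mof+/+ promoter peak of each gene, here called its lead peak, had between 16 and 49 fragments at its summit, with a median of 25.0.

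SR proteins carry an arginine-serine-rich domain and mostly promote the inclusion of exons whose enhancers they bind, while hnRNPs often silence exons. Both kinds of protein are made in nearly all cells, the levels of many are adjusted by autoregulation through alternative exons that target the transcript for decay, and several of their genes share a CpG-rich promoter with a neighbour on the other strand. The divergent promoters of Hnrnpa2b1 and Cbx3 and of Hnrnpa1 and Cbx5 are of this kind, and the former is known as a ubiquitous chromatin opening element.

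The sequence immediately before the start is shown for 3 genes: Tra2b, which had the peak with the highest fold enrichment, and Srsf5 and Hnrnpa2b1, which had peaks in both lists. Each is the 250 bases before the start of the gene record, read from GRCm38 on the strand of the gene. They lie at chr16:22266006-22266255 (minus strand), chr12:80945254-80945503 (plus) and chr6:51469895-51470144 (minus). Capitals mark matches, on either strand, to CCAAT (the CCAAT box), GGGCGG (a GC box), CCGGAAG (an ETS factor motif), TATAAA, GCGCATGCG, TCTCGCGAG or AAGATGGCG.

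Tra2b: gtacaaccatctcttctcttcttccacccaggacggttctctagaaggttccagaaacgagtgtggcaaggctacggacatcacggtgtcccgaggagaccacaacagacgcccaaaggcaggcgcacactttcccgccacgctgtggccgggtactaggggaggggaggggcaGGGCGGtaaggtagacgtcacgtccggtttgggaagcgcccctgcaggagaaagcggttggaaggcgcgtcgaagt
Srsf5: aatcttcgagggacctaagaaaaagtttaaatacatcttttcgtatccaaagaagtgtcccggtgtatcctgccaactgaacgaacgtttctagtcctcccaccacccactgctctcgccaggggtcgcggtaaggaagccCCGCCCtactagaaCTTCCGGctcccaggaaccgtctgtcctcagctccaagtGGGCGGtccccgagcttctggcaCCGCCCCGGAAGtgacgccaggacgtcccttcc
Hnrnpa2b1: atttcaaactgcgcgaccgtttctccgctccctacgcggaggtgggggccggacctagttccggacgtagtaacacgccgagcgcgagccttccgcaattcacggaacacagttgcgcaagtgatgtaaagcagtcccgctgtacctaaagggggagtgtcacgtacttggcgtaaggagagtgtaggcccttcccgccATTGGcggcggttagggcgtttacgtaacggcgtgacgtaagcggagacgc

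The 3 stretches lay wholly under the Mof+/+ peak. The number of CpG sites in them was 19 for Tra2b, 17 for Srsf5 and 29 for Hnrnpa2b1. The Srsf5 stretch held 3 GC boxes and 2 ETS motifs, of which the last pair shares 1 base. Over all 35 genes, in the 300 bases from 250 before to 50 after the start of the gene record, GGGCGG was present in 25 (71.4%), against 43.7% of all autosomal coding genes. CCAAT was present in 18 (51.4%, against 38.6%), CCGGAAG in 7 (20.0%, against 11.0%) and TATAAA in 3 (8.57%, against 12.7%). GCGCATGCG, TCTCGCGAG and AAGATGGCG were each found in 1 gene (2.86%), against 2.2%, 0.884% and 1.7% of coding genes. The genes are CpG-rich as a group: a median of 89.0 CpG sites lay within 500 bp of the start, with quartiles of 68.5 and 112, against a median of 43.0 for all autosomal coding genes. These shares describe letters in a window and were not related to binding.

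To ask how widely MOF sat on the promoters of these genes, peaks within 1 kb of an annotated start site were counted. In the Mof+/+ list, 34 of the 35 genes had such a peak (97.1%, 95% Wilson interval 85.5 to 99.5%, counting error only). The share was 42.7% over all autosomal coding genes and 73.4% over those 4730 genes whose CpG number lay between the quartiles of the SR and hnRNP genes. The genes have more annotated starts than most, a median of 7.0 against 3.0, which gives a peak more places to count. With the start of the gene record alone, 32 of 35 had a peak, against 39.6% of coding genes. The 2 that dropped out, Hnrnpm and Ptbp2, had their peak at a start further inside the gene, with summits 1568 and 1822 bp from a record start that is poor in CpG sites (4 and 16 within 500 bp).

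Srsf12, which encodes a relative of SRSF10, was the exception. No Mof+/+ peak lay over the gene or near its 2 starts, and the nearest was 33384 bp from a start. Its start had 52 CpG sites within 500 bp, below the lower quartile of the group but above Hnrnpm, Ptbp2, Hnrnpf and Hnrnpl.

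The widths were then compared with the whole Mof+/+ list, whose 19579 autosomal peaks had a median of 610 bp and quartiles of 397 and 1040 bp. The 59 distinct promoter peaks of the 34 genes had a median of 1374 bp and quartiles of 636.5 and 2036.5 bp, so the ratio of the medians was 2.25. Of the 59, 45 (76.3%) were wider than the median of the list and 35 (59.3%) wider than its upper quartile. Among the promoter peaks of all autosomal coding genes these shares were 60.9% and 33.1%. With 1 lead peak per gene the median was 1863 bp, 3.05 times that of the list. All lead peaks but that of Srsf11 were wider than the median of the list, 29 of 34 (85.3%) exceeded its upper quartile, and 18 of 34 (52.9%) exceeded its 90th percentile of 1678 bp. A lead peak is the strongest of its gene, and the like set is the lead peaks of all autosomal coding genes: these had a median of 836 bp, 37.4% exceeded the upper quartile of the list and 15.5% its 90th percentile, so the ratio of lead medians was 2.23.

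**Figure D1:**
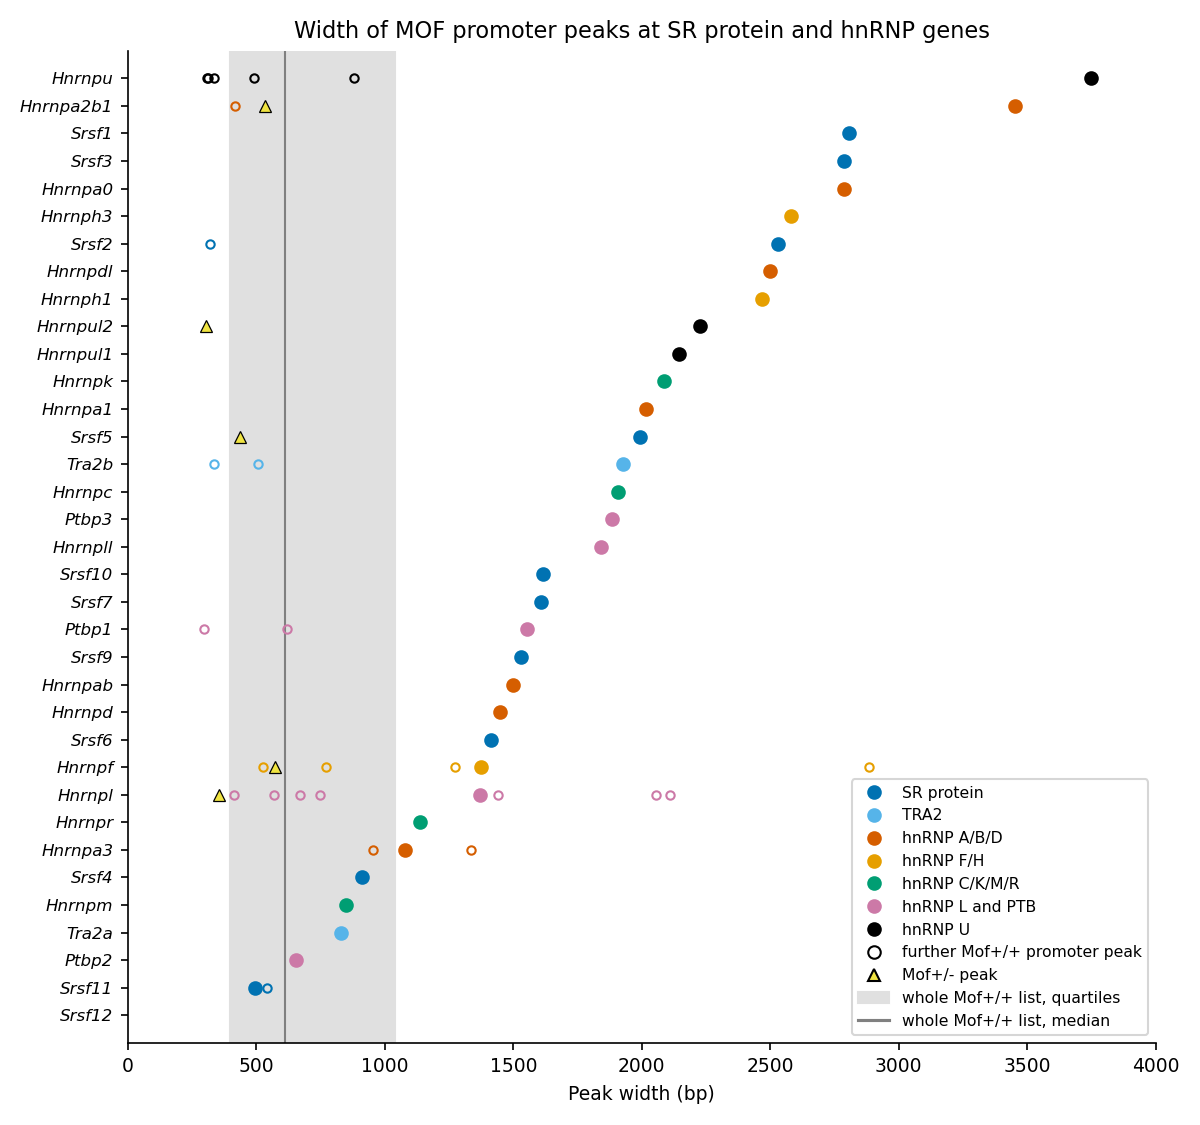
Width in bp of each promoter peak by gene, ordered by the lead Mof+/+ peak (filled circles, coloured by family), with further Mof+/+ promoter peaks as open circles and Mof+/- peaks as triangles. The grey band spans the quartiles of the whole Mof+/+ list (397 to 1040 bp) and the line its median (610 bp); 29 of 34 filled circles lie to the right of the band, and Srsf12 has no point.

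Promoter peaks of all genes were wider than the list as a whole, and width moved with fold enrichment. The 10027 Mof+/+ promoter peaks of all autosomal coding genes had a median width of 749 bp, and the 4009 of genes with a similar CpG number had 803 bp, which puts the SR and hnRNP promoter peaks at 1.83 and 1.71 times these medians. Fold enrichment was also higher: the median was 4.42 over the 59 peaks, 3.41 over the whole list and 3.76 over coding promoter peaks. Lead peaks had a median fold enrichment of 5.53 with quartiles of 4.57 and 7.13. The 2340 lead peaks of coding genes inside that range had a median width of 1296 bp, and the 16 SR and hnRNP genes inside it had 1581.5 bp, 1.22 times as wide. Widths and enrichment come from the same caller and the same fragments, and these ratios have no test.

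**Figure D2:**
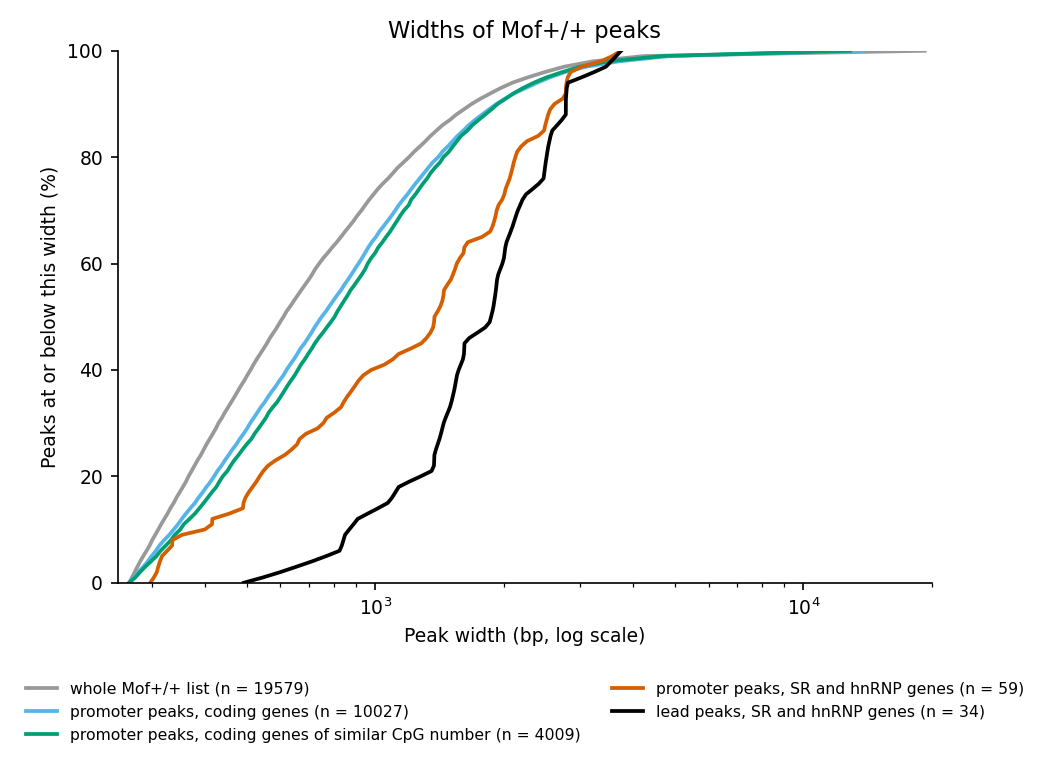
Cumulative share of Mof+/+ peaks (%, y axis) by width (bp, log scale on the x axis) for the whole list, for promoter peaks of coding genes, for those of similar CpG number, and for SR and hnRNP genes. The medians are 610, 749, 803, 1374 and, for 1 lead peak per gene, 1863 bp, and the curves of the SR and hnRNP genes lie to the right of the others around their medians and quartiles.

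**Figure D3:**
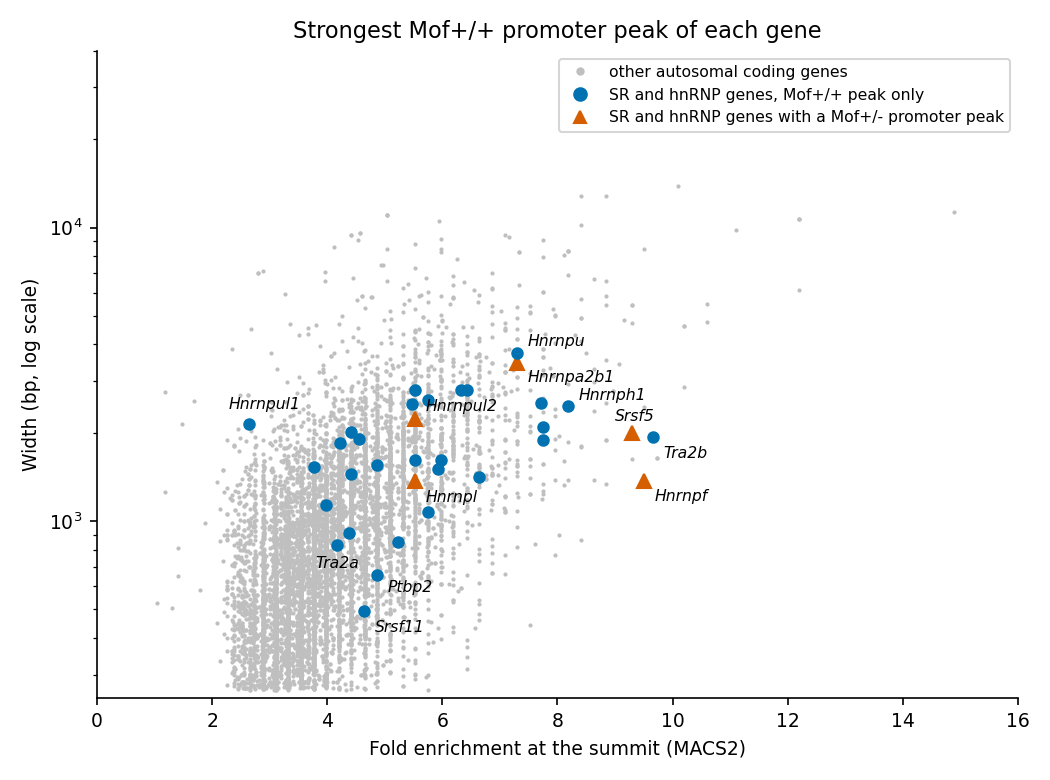
Fold enrichment at the summit (x axis) and width (bp, log scale on the y axis) of the strongest Mof+/+ promoter peak of each coding gene (grey), with SR and hnRNP genes in colour and those with a Mof+/- promoter peak as triangles. The SR and hnRNP genes lie between 2.64 and 9.66 on the x axis, and the widest coding promoter peaks (13812 bp at most) are not among them, the widest here being 3748 bp.

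The widest lead peak was that of Hnrnpu, whose product, also known as scaffold attachment factor A, binds RNA and chromatin. It spanned 3748 bp (chr1:178335070-178338817) with a fold enrichment of 7.30 and 32 fragments at its summit. The peak of Hnrnpa2b1, which encodes a pair of hnRNP isoforms, spanned 3452 bp (chr6:51467853-51471304) and had the same enrichment, 7.30; it ran from inside the gene across the start of Cbx3. Srsf1, the founding SR protein gene, had 2805 bp (fold enrichment 5.53), Srsf3, which encodes the smallest SR protein, 2786 bp (6.32), and Hnrnpa0 2785 bp (6.42). A further promoter peak of Hnrnpf, described below, was wider than these 3, at 2886 bp. In short genes the lead peak took much of the gene. It covered 54.9% of the 2678 bp of Hnrnpa0, 52.0% of the 3194 bp of Srsf2 and 36.3% of the 6383 bp of Srsf1. Over the 34 genes this share had a median of 10.3%, against 2.11% over coding genes with a promoter peak.

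By fold enrichment the order was different. Tra2b, whose product binds GAA-rich exonic enhancers, came first with 9.66 (−log10 p of 35.2, 49 fragments) over 1928 bp at chr16:22264415-22266342. Hnrnpf, which encodes a protein that binds runs of G, followed with 9.51 (42 fragments, 1374 bp at chr6:117906768-117908141), and Srsf5 with 9.29 (41 fragments, 1993 bp at chr12:80944593-80946585). Hnrnph1, the close relative of Hnrnpf, had 8.18 (36 fragments, 2469 bp). Hnrnpk, a C-binding hnRNP gene, and Ptbp3, a paralogue of Ptbp1, both had 7.74 with 34 fragments. The fragments behind the 3 highest values do not differ beyond counting error: the exact 95% Poisson intervals, which cover counting error only, are 36.3 to 64.8 for the 49 of Tra2b, 30.3 to 56.8 for the 42 of Hnrnpf and 29.4 to 55.6 for the 41 of Srsf5. None of the 5 widest peaks was among the 5 of highest enrichment.

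Taking the lead peak of each gene, the narrowest were those of Srsf11 (493 bp, fold enrichment 4.64), Ptbp2 (655 bp, 4.87), which encodes the PTB protein of neurons, and Tra2a (828 bp, 4.16). Srsf11 had a second peak of 543 bp at the start it shares with Lrrc40, with a lower enrichment of 3.98. The lowest enrichment was that of Hnrnpul1, 2.64 over 2144 bp with 20 fragments against a background of 6.96, the highest background at any of these peaks. Its summit lay 1281 bp upstream of the start, and it was the only lead peak at or under the median enrichment of the whole list.

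Between these ends lay, among others, Hnrnpll (1842 bp, fold enrichment 4.22), which encodes a regulator of CD45 splicing in T cells, Srsf9 (1530 bp, 3.76), Hnrnpab (1499 bp, 5.92), Srsf6 (1415 bp, 6.64), Hnrnpr (1137 bp, 3.98) and Srsf4 (912 bp, 4.37). By family, the median width of lead peaks was 1612.5 bp for the 10 SR protein genes with one, 2016 bp for the 7 genes of the hnRNP A/B/D group, 2469 bp for the 3 of the F/H group, 1523 bp for the 4 of the C/K/M/R group, 1554 bp for the 5 of the L and PTB group and 2226 bp for the 3 of the U group. Within the SR protein genes alone the widths ran from 493 to 2805 bp, a range that takes in the medians of all the other groups. The TRA2 pair had 828 bp (Tra2a) and 1928 bp (Tra2b). By median, fold enrichment was highest in the F/H group (8.18; 5.75, 8.18 and 9.51 for Hnrnph3, Hnrnph1 and Hnrnpf) and lay between 4.42 and 7.30 in the A/B/D group.

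For 27 of the 34 genes (79.4%) the lead peak covered the start of the gene record, against 54.6% of coding genes with a promoter peak. Its summit lay downstream of that start in 30 of 34 (88.2%), by a median over all 34 of 321.5 bp, against 73.3% and a median of 204 bp over coding genes with a promoter peak. Measured from the nearest annotated start the share was 67.6%, against 60.3%. The summits fell in coding sequence in 12 genes (35.3%, against 14.2% of coding genes with a promoter peak), in an intron in 10 (29.4%, against 29.7%) and in an untranslated region in 6 (17.6%, against 24.1%). They fell in exons known only from noncoding transcripts in 2 (5.88%, against 4.86%) and upstream in 4 (11.8%, against 26.6%), which were Hnrnpul1, Ptbp1, Srsf3 and Srsf10.

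A coding gene on the other side of a shared peak cannot be told apart from the splicing gene as the site of binding. The lead peak lay within 1 kb of the start of another coding gene for 9 of 34 genes (26.5%, against 26.1% of coding genes with a promoter peak). These were Hnrnpa1 (with Cbx5), Hnrnpa2b1 (Cbx3), Hnrnpd (4930524J08Rik), Hnrnpdl (Enoph1), Hnrnph3 (Pbld2), Hnrnpk (Rmi1), Hnrnpul2 (Ttc9c), Srsf2 (Mfsd11) and Srsf7 (Ttc39d). The median width was 2226 bp for these 9 and 1554 bp for the other 25, both above the 610 bp of the whole list. Over all coding genes the corresponding medians were 862 and 832 bp. With noncoding genes counted too, 18 of 34 lead peaks (52.9%, against 40.4% of coding genes with a promoter peak) lay near the start of another gene, among them the lncRNA gene Gm20337 beside Srsf5 and E130317F20Rik beside Ptbp1.

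Several genes carried more than 1 promoter peak. There were 2 or more in 9 of 35 genes, against 9.34% of coding genes, a share that includes genes without any promoter peak. Among genes with a promoter peak the counts were 9 of 34, against 1943 of 8894 coding genes. At Hnrnpf 5 peaks lay at starts, and the peak at the outermost start was not the strongest: it had a fold enrichment of 3.92 over 1274 bp, against 9.51 at starts further in, with a summit 6965 bp into the gene, and 6.81 over 2886 bp at the next group of starts, with a summit 16808 bp into it. At Hnrnpl, which encodes a protein that binds CA repeats, 8 peaks covered 63.8% of the gene, the highest share of the 35. The strongest, with 5.53, had its summit 2596 bp inside the gene record, and the peak at the outermost start had 4.13. At Hnrnpu 6 promoter peaks were counted. All these counts are of peaks as deposited, before neighbouring peaks are merged. Most neighbouring peaks of Hnrnpl lay less than 1 kb apart, and Hnrnpa3 and Ptbp1 each had a pair that close. Many inner starts belong to transcripts with a retained intron or other noncoding forms, and with starts of protein-coding transcripts alone the counts fell to 2 for Hnrnpl and 1 for Hnrnpu but stayed at 5 for Hnrnpf. On that narrower definition 43 distinct peaks remained, and the genes with 2 or more fell from 9 to 5 (Hnrnpa3, Hnrnpf, Hnrnpl, Ptbp1 and Srsf11), against 7.67% of coding genes. Among genes with a peak at any start, these were 5 of 34, against 1595 of 8894 coding genes.

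**Figure D4:**
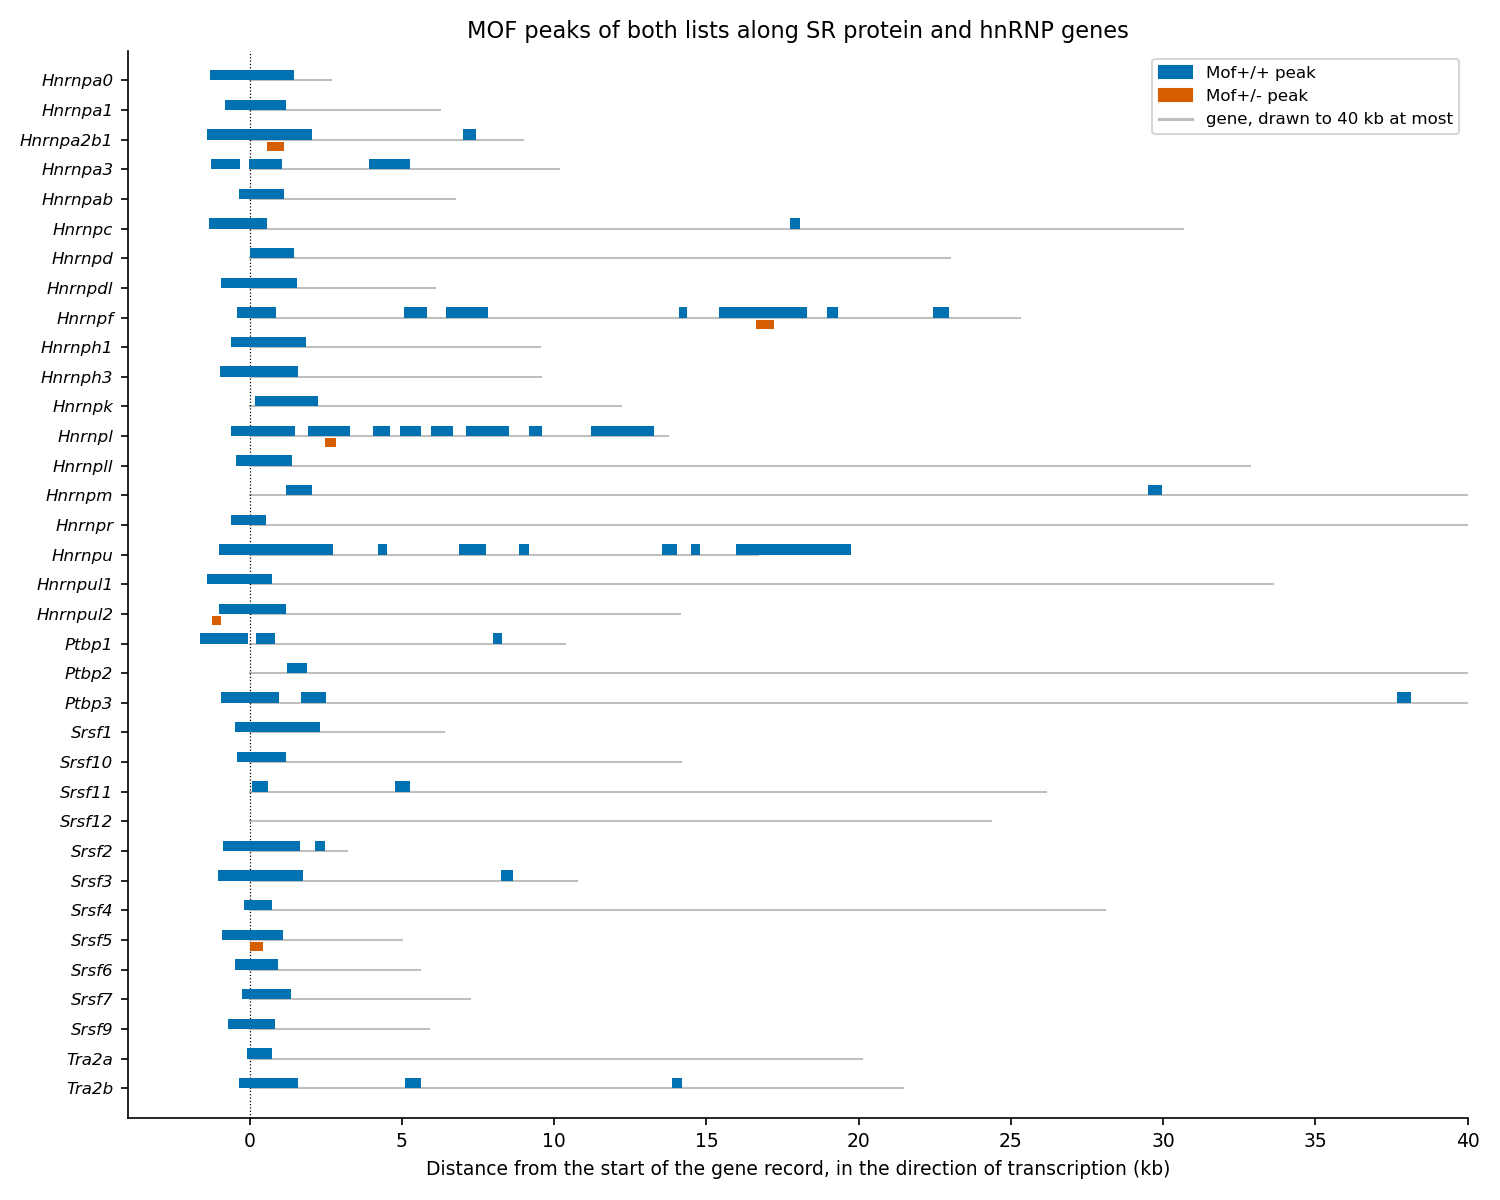
Position of the peaks of both lists along each gene, in kb from the start of the gene record in the direction of transcription, with Mof+/+ peaks above and Mof+/- peaks below the line of the gene (drawn to 40 kb at most). Most genes show a single Mof+/+ peak over the start; Hnrnpl, Hnrnpf and Hnrnpu show 8, 7 and 7 along the gene, and the 5 Mof+/- peaks are at Hnrnpa2b1, Hnrnpf, Hnrnpl, Hnrnpul2 and Srsf5.

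Over gene bodies, 34 of the 35 genes overlapped a Mof+/+ peak, against 43.2% of coding genes, and in 28 a peak overlapped the gene without its first and last 1 kb, against 20.7% of coding genes. Of these peaks, 8 were more than 1 kb from every start of the gene, and they lay in 6 genes (17.1%, against 12.6% of coding genes). These shares include genes without any body peak. Among genes with one, the counts were 6 of 34, against 2631 of 8979 coding genes, a lower share in the SR and hnRNP genes. In the same way, the 28 of 34 compare with 4303 of 8979. As a set the 8 peaks were narrower and weaker, with a median of 416.5 bp (0.683 times that of the whole list) and a median fold enrichment of 2.86. The widest and strongest was a peak of 3761 bp at the 3′ end of Hnrnpu (fold enrichment 5.97, 26 fragments), which lay at the start of Cox20. Of the rest, Hnrnpc (334 bp, fold enrichment 2.80), Hnrnpm (462 bp, 3.10) and Srsf3 (398 bp, 2.48) had 1 each. Hnrnpf had 2, of 268 and 355 bp with enrichments of 2.85 and 2.88. Ptbp3 had 2: a peak of 435 bp with 2.56, whose summit lay 37784 bp into the gene, and a peak of 809 bp with 4.20, also above the medians of the list (610 bp and 3.41), that lay 1069 bp from a start, just outside the window.

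Exons found only in decay transcripts were examined as well. The annotation gives 16 internal exons, in 10 of the genes, that occur only in transcripts subject to nonsense-mediated decay and lie within introns of the coding transcripts. None of the 16 overlapped a peak of either list. Of the 82 internal exons of coding transcripts in the same genes, 12 (14.6%) overlapped a Mof+/+ peak. How far each exon lies from a start was not taken into account. The 16 count overlapping forms of an exon separately in Hnrnpd, Srsf4 and Tra2b, and they are too few to set against the 14.6%. The 16 include exons of Srsf3 (456 bp), Srsf7 (460 bp), Tra2a (306 bp) and Tra2b (397 bp, with a shorter form of 276 bp).

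In the Mof+/- list, 5 of the 35 genes had a promoter peak (14.3%, interval 6.26 to 29.4%), against 1.37% of all autosomal coding genes and 3.13% of those with a Mof+/+ promoter peak. Among the 25 genes whose lead Mof+/+ peak reached the lower quartile of the group (4.57), the 5 compare with 5.82% of the coding genes past the same value. The count of 5 fell to 3 (Hnrnpa2b1, Hnrnpul2 and Srsf5) with the start of the gene record alone, against 1.06% of coding genes, and to 3 (Hnrnpf, Hnrnpl and Srsf5) under a q-value limit of 0.001, against 0.702%, so Srsf5 was the one gene counted under both. For the body of the gene the count was 4 of 35, against 1.56%. All 5 Mof+/- peaks overlapped a Mof+/+ peak, by at least 77 bp, as did 300 of the 326 Mof+/- promoter peaks of all coding genes (92%, counted from 1 bp).

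Srsf5 had a Mof+/- peak of 436 bp at chr12:80945512-80945947, inside its Mof+/+ peak of 1993 bp. The fold enrichment was 4.70 with 18 fragments over a background of 3.05, against 9.29 with 41 fragments over 3.52 in Mof+/+, and the summits lay close together, 357 and 336 bp from the start of the gene record. At Hnrnpf the Mof+/- peak (571 bp, chr6:117916962-117917532) had the highest enrichment of the 5, 6.30 with 20 fragments. Its summit lay 17101 bp into the gene, in the Mof+/+ peak of 2886 bp (6.81, 31 fragments) and not in the one with the highest Mof+/+ enrichment. At Hnrnpl a peak of 354 bp (chr7:28811020-28811373, fold enrichment 4.60, 14 fragments) lay inside the strongest Mof+/+ peak of the gene (5.53, 24 fragments).

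The other 2 peaks were weaker. At Hnrnpa2b1 the Mof+/- peak spanned 535 bp (chr6:51468776-51469310) with a fold enrichment of 3.68 and 11 fragments, the fewest at any Mof+/- summit that could be solved. It lay within the gene, 462 bp from the nearest start, on the side away from Cbx3. At Hnrnpul2, which encodes a relative of HNRNPU, a peak of 305 bp (chr19:8818764-8819068, fold enrichment 3.99, 12 fragments) lay 942 bp upstream of the start, just inside the window. It shared 77 bp with the Mof+/+ peak and its summit was in an untranslated region of Ttc9c, so it may be counted with either gene.

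For 3 of the 5, the bases around the Mof+/- summit are shown, since these are the stretches listed as bound in both genotypes. They reach 75 bases to each side of the summit on the strand of the gene, and untranslated regions are left out, which shortens the Srsf5 stretch to 138 bases and omits Hnrnpf and Hnrnpul2. Capitals mark the same motifs as above. The positions are chr12:80945799-80945936, chr7:28811128-28811278 and chr6:51469046-51469196.

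Srsf5: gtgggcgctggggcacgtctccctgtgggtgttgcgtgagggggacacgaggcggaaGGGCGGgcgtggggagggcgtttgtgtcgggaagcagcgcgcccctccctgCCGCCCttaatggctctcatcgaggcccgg
Hnrnpl: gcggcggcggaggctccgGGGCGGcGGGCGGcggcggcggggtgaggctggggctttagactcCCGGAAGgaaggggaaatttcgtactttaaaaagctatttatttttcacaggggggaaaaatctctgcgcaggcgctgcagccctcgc
Hnrnpa2b1: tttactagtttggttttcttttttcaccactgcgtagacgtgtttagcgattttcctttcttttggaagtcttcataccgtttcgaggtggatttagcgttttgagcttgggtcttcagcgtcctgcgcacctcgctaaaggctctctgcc

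They held 14, 15 and 9 CpG sites. GC boxes occurred in the Srsf5 and Hnrnpl stretches, 2 in each, and an ETS motif in that of Hnrnpl, while no searched motif occurred in that of Hnrnpa2b1.

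By Mof+/+ enrichment, the genes with a Mof+/- peak overlapped those without. The lead peaks of the 5 had Mof+/+ enrichments from 5.53 to 9.51 (median 7.30), and those of the 29 without ran from 2.64 to 9.66 (median 5.53), 13 of them above the lowest of the 5. Tra2b, which had the highest Mof+/+ enrichment of the 35 genes, had no Mof+/- peak, nor had Hnrnph1, Hnrnpk, Ptbp3, Srsf2 or Hnrnpu. The Mof+/- list also had the lower background (2.26 against 3.52 fragments), and the part of depth in the missing peaks was not tested. With 1 list per genotype, genotype and library cannot be told apart.

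To place these genes among others of the same pathway, 4 further lists were counted in the same way. Of the 34 genes of the core spliceosome, 27 (79.4%, interval 63.2 to 89.7%) had a Mof+/+ promoter peak and 1, Snrpd3, had a Mof+/- promoter peak. The 7 without one were Prpf19, Prpf31, Prpf8, Sf3a1, Sf3b5, Snrnp200 and Snrpb2. Of the 8 kinases that phosphorylate SR proteins, 7 had one (Clk2 did not), and of 27 other broadly used splicing regulators 24 had one (Pcbp3, Pcbp4 and Rbfox2 did not). None of these 35 genes had a Mof+/- promoter peak. Among 14 splicing regulators of neurons, by contrast, a single gene, Elavl3, had a Mof+/+ promoter peak (324 bp wide, fold enrichment 3.54), a share of 7.14% (interval 1.27 to 31.5%). Their starts had a median of 64.0 CpG sites, and those of the core spliceosome 62.0. Lead peaks were narrower in the core spliceosome (median 935 bp, fold enrichment 4.06) than in the SR and hnRNP genes (1863 bp, 5.53), while the kinases (1419 bp, 5.75) and the other regulators (1730.5 bp, 5.09) lay nearer to them.

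**Figure D5:**
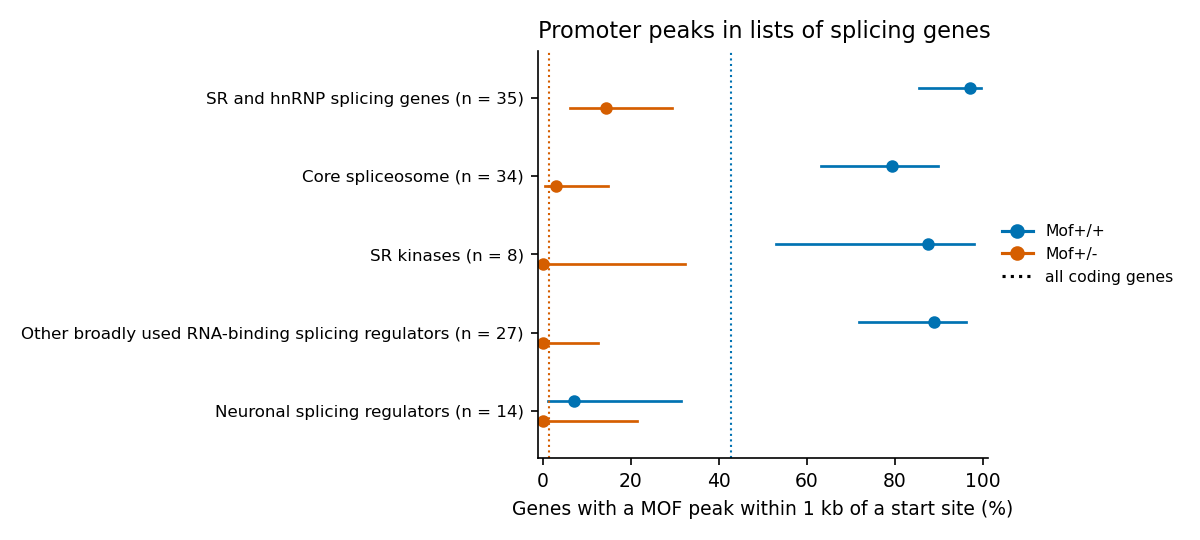
Share of genes (%, x axis) with a MOF peak within 1 kb of a start site in 5 lists of splicing genes, for Mof+/+ (blue) and Mof+/- (orange), with 95% Wilson intervals for counting error as lines. Dotted lines give the shares over all autosomal coding genes, 42.7% and 1.37%; the Mof+/+ share is 97.1% for SR and hnRNP genes and 7.14% for the neuronal regulators.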

How the data were processed

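According to the labels and the study's methods, adipose tissue was fixed, its chromatin cut with the restriction enzyme CviKI-1 and sonicated, and paired reads were mapped to GRCm38. The authors called peaks with MACS2 (2.1.1.20160309.3 in the submitters' processing notes) against input DNA at a q-value of 0.1. Whether libraries were pooled for calling is not stated, and the deposited lists precede the merging of neighbouring peaks that the methods describe. The deposited fold enrichment is a ratio of fragments at the summit to local input background, with 1 added to both, and the −log10 values of its p-value and q-value are likewise deposited as called by the authors. Enzyme sites may set where fragments, and so peak edges, lie. The MOF antibody named in the labels differs from those in the study's reporting summary. The design text gives 2 control and 3 Mof+/- animals, the labels 2 per genotype.

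The members and lists were chosen with earlier results of these data known. Peaks within 1 kb of any GENCODE M21 start, or sharing at least 1 bp with the gene, were counted with Python 3.11.15, numpy 2.4.6, pandas 2.3.3 and scipy 1.17.1. Fragments were solved from enrichment and p-value (within 0.001 in −log10 p for all 72 member peaks), a step tested on simulated data. Genes named with values were those with a Mof+/- peak, without a Mof+/+ promoter peak, with the 5 widest, 5 strongest or 3 narrowest lead promoter peaks (the strongest of each gene), or with a body peak away from starts. Further genes were named after their values were seen. H3 and input libraries were not analysed here.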

Additional observations from a re-analysis of the deposited data

How the results depend on the processing

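Of 42 alternatives to the counts, widths and ratios, 36 stayed within 1.5 times the reported value. The number of genes with a Mof+/- promoter peak fell from 5 to 3 with the start of the gene record alone and likewise to 3 under a q-value limit of 0.001. The ratio of medians against the whole list moved from 2.25 to 0.683 for body peaks away from promoters, to 1.3 with fold enrichment in place of width and, among 5 alternatives chosen after seeing the data, to 1.44 for all member lead peaks against coding lead peaks inside the members' enrichment quartiles and to 1.22 with both held to that range. The count of genes with a Mof+/+ promoter peak ran from 32 to 34 under its 7 alternatives. No paired analysis was possible because the data used here were 1 peak list for Mof+/+ and 1 for Mof+/-, whose columns carry no replicate numbers; leaving out a replicate was not run for the same reason. The labels number 2 MOF libraries per genotype, and signal per library was not analysed here. Of the 727 Mof+/- peaks solved for fragments, none had under 11 at the summit; what depth alone accounts for was not tested.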
